A study of Homo sapiens with 4 samples.

Results

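The regions described here are 1023 sites of open chromatin that had a peak in all 4 libraries of the study and a higher relative coverage in both libraries treated with 5-azacytidine. The study used ATAC-seq, which maps open chromatin, on BCPAP, an established human line from a papillary thyroid carcinoma. It holds 2 libraries from untreated cells and 2 from cells given 5-azacytidine. The labels name no dose, duration or vehicle, and do not say whether replicates were separate cultures, so their spread may be technical. Peaks were listed separately for each library on the hg19 build, and on chromosomes 1 to 22 untreated replicates 1 and 2 had 216020 and 218581 peaks, while the treated replicates had 254980 and 239875.

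In ATAC-seq a transposase inserts adapters where DNA is not shielded by nucleosomes, and the height of a peak follows how often a site is exposed. Cytosine methylation at CpG sites is copied at replication by a maintenance methyltransferase, and in tumour cells it often covers promoters and enhancers that are kept closed. 5-Azacytidine is a cytidine analogue that is built into nucleic acids. In DNA it traps the methyltransferases, so that methylation is lost as cells divide. Methylation itself was not measured in these libraries.

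Members were chosen by their summit coverage, the number of reads or fragments stacked at the top of a peak, which can be recovered from the deposited fold enrichment. Peaks that overlapped by 1 bp or more were joined, across lists, into 366095 regions on chromosomes 1 to 22, of which 103006 had a peak in every list. Each region was given its highest summit in each library. Over these shared regions untreated replicates 1 and 2 had a median coverage of 23 and 18, while treated replicates 1 and 2 had 11 and 16. Each value was therefore divided by its library's median, and the quotient is called scaled coverage. The division takes out any difference shared by all regions of a library, whatever its source. Strong regions had a raw coverage of 20 or more in at least 2 libraries, and there were 49777 of them. A member was a strong region whose lower treated scaled coverage was at least 1.5 times the higher untreated one, a quotient called the ratio below.

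By this rule 2.06% of strong regions were higher after treatment. The same rule with the groups exchanged gave 2679 regions, or 5.38%, that were lower. The higher regions were thus 27.6% of those past 1.5 in either direction. This balance depended on the raw minimum and on the scaling. With a raw minimum of 10, 4283 regions were higher and 3144 lower, so that the higher ones made up 57.7%. With a minimum of 30 there were 344 and 1820, and the higher ones made up 15.9%. Without scaling, 141 regions were higher and 12697 lower. Strong regions as a whole had a median log2 ratio of mean treated to mean untreated scaled coverage of −0.15, and all shared regions one of 0.06. With each library divided by its median over strong regions instead, 1420 regions were higher and 1776 lower, so that the higher ones made up 44.4%. All 1023 members stayed among the 1420. Without treated replicate 1, the library with the lowest coverage, 1915 regions were higher and 703 of the members overlapped them. With 3 libraries the rule asks for 1 treated library only, but the raw minimum must be met in 2 of 3 lists.

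The choice used the coverage of all 4 libraries, so the values by library are a description and no test applies to them. In untreated cells the members' coverage was near the median of shared regions and below that of strong regions. Their raw coverage ran from 4 to 83 with a median of 23 in untreated replicate 1, and from 4 to 94 with a median of 17 in untreated replicate 2. In treated cells it ran from 15 to 123 with a median of 24 in replicate 1, and from 20 to 162 with a median of 33 in replicate 2. Strong regions as a whole had raw medians of 43, 33, 19 and 28 in the same order. The median scaled coverage of the members was 1.0 and 0.94 without treatment and 2.18 and 2.06 with it. The members were therefore near the median of shared sites before treatment and above it after. Strong regions had scaled medians of 1.87 and 1.83, then 1.73 and 1.75.

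**Figure D1:**
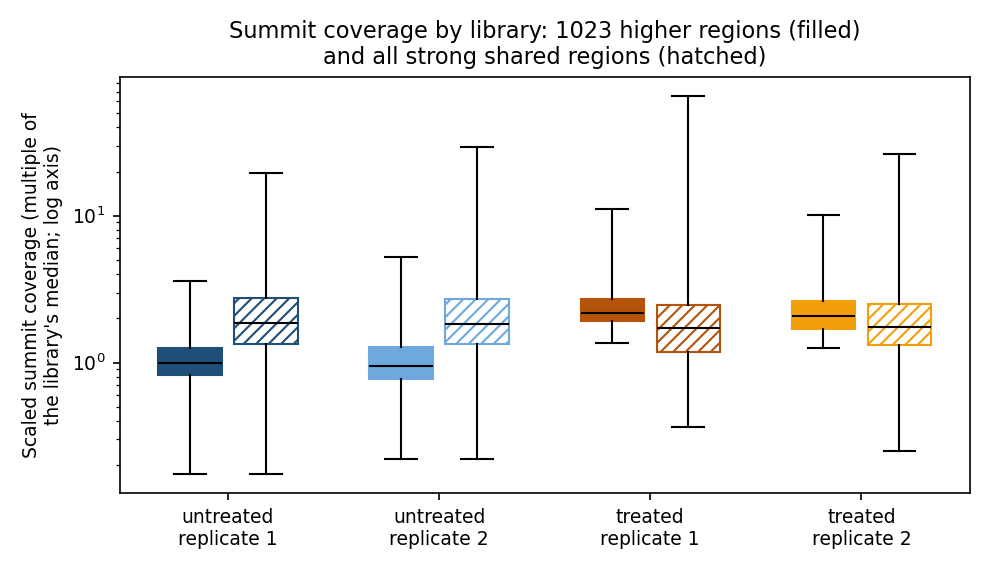
Scaled summit coverage (log axis) of the members (filled) and of all 49777 strong shared regions (hatched) in each library. Boxes span the middle 50% of regions with the median as a line, and whiskers reach the lowest and highest region; the members' medians are 1.0 and 0.94 in the untreated and 2.18 and 2.06 in the treated libraries.

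The difference between groups was modest for most members. Their ratio had a median of 1.72, and 50% of them lay between 1.58 and 2.01. A ratio of at least 2 was reached by 262 members (25.6%), of at least 3 by 72 (7.04%), of at least 4 by 27 and of at least 5 by 7. The median fold between the treated replicates was 1.14 over the members and 1.24 over strong regions, and that between the untreated replicates was 1.20 and 1.19. The members' folds come from the values that chose them. Treated replicate 2 was the lower treated library in 642 members and treated replicate 1 in 372, with a tie in 9.

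**Figure D2:**
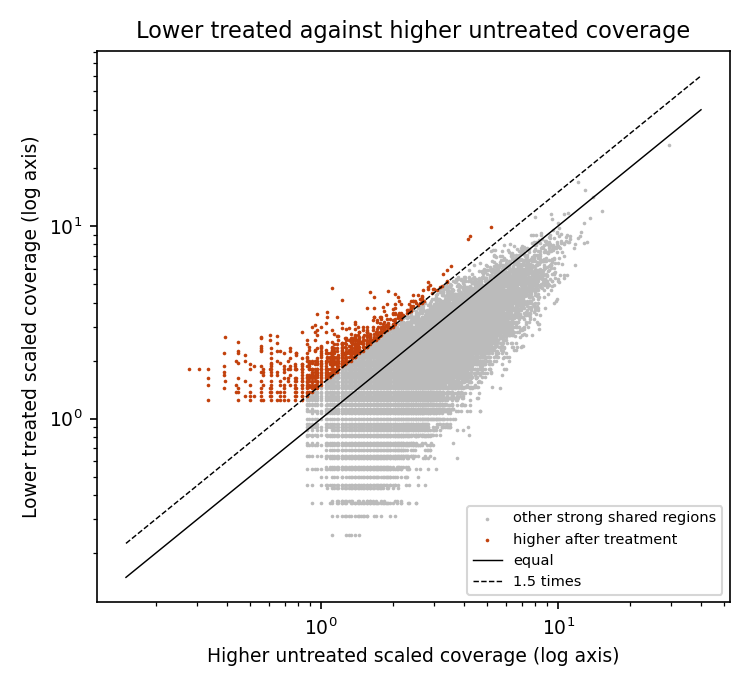
Lower treated against higher untreated scaled coverage (both log axes), with 1 point for each pair of values that occurs among strong shared regions. Members (orange) lie on or above the dashed line at 1.5 times, up to a ratio of 6.74. Most other regions (grey) lie below the solid line of equal coverage. The axes set the lower of 2 treated against the higher of 2 untreated values, which by itself puts most regions below that line.

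Raw coverage, with no scaling, was also higher in both treated libraries than in both untreated ones for 485 members (47.4%). Of all strong regions this held for 1.14%. This order rests on values that chose the members, so nothing is read from the count. Members with both untreated values below 20 met the raw minimum only through both treated libraries, which fixes their order. In 141 members the raw coverage itself differed by at least 1.5 times. For the other members the call rests on the scaling. Counting error was large at single sites. In 156 members (15.2%) the 95% exact Poisson intervals of both treated libraries, after scaling, lay above those of both untreated libraries. Of all strong regions this held for 0.315%, and since the intervals rest on the values that chose the members, nothing is read from the count. Such intervals cover counting error only, and stacked reads may include copies of 1 molecule.

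Members just past the threshold show how small the step there is. On chromosome 1 from 40439043 to 40439563, a member with a ratio of 1.5, raw coverage was 23 and 13 without treatment and 17 and 24 with it. On chromosome 2 from 175470957 to 175471483, which missed the threshold with a ratio of 1.497, it was 24 and 12 against 19 and 25. The other members at 1.5 named by the same rule lay on chromosome 1 from 188059431 to 188059957 and on chromosome 3 from 9539451 to 9540263. Those that just missed it lay on chromosome 14 from 56055833 to 56056369 and on chromosome 19 from 1443714 to 1444384.

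A small group of members had low coverage in untreated cells. In 41 members (4.01%) the raw coverage was 10 or less in both untreated libraries, where the lowest listed value is 4. Such regions pass the raw minimum only through both treated libraries, so that all 41 strong regions of this kind are members by the rule, with a high ratio given by it. Their median ratio was 4.05. At the other end, 366 members (35.8%) had a coverage of 20 or more in both untreated libraries and a median ratio of 1.64. In every member outside the group of 41, at least 1 untreated library had a coverage above 10.

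The genes at the positions below were not analysed here, and positions are those of hg19. The 12 members with the largest ratios all belong to the 41 with a coverage of 10 or less in both untreated libraries. Their high ratios are thus given by the rule. The largest ratio was at chromosome 5 from 310372 to 311577, near the end of the short arm. Its coverage was 9 and 5 in untreated cells against 29 and 45 in treated cells. The scaled values were 0.39 and 0.28 against 2.64 and 2.81, a ratio of 6.74. The fold enrichment that the authors' peak caller gave there was 5.23 and 3.16 against 15.8 and 24.5. Both untreated libraries had 1 summit in this region and both treated libraries had 2.

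On chromosome 17 from 55370387 to 55370947 the coverage was 5 in both untreated libraries and 20 and 34 in the treated ones, a ratio of 6.55. On chromosome 11 from 108107199 to 108107764 it was 7 and 5 against 26 and 29, a ratio of 5.96. Chromosome 6 from 3252557 to 3253121 had 4 and 7 against 25 and 35, a ratio of 5.62. All of these were narrow regions with a single summit in every list. The region on chromosome 16 from 87749180 to 87749730 was of the same kind, with 8 in both untreated libraries and 29 and 40 in the treated ones.

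The next in order were chromosome 9 from 116936904 to 116938144, with 7 and 6 against 20 and 30, and chromosome 3 from 197681556 to 197684632, with 10 and 8 against 30 and 36. Chromosome 1 from 61752280 to 61753108 had 7 and 6 against 21 and 26. Chromosome 20 from 44573998 to 44574842 had 8 and 10 against 29 and 49. The remaining 3 of the 12 largest ratios belong to runs of members described below.

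The members with the highest coverage were open in both conditions. Chromosome 17 from 41400611 to 41401319 led with 72 and 76 in the untreated and 123 and 142 in the treated libraries, a ratio of 2.10. Directly beside it, the region from 41399511 to 41400582 had 16 and 20 against 79 and 76, a ratio of 4.28. Chromosome 5 from 137805294 to 137809555, a region with 6 to 8 summits in each list, had 83 and 94 against 109 and 162. Chromosome 20 from 59760859 to 59762940 had 65 and 75 against 94 and 141.

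For the other 4 of these 8 members the raw values of the groups overlapped, so the scaling set them apart. Chromosome 5 from 45385300 to 45386650 had 75 and 53 untreated against 73 and 90 treated. Chromosome 1 from 75116083 to 75116585 had 81 and 51 against 68 and 109. On chromosome 11 from 75129877 to 75130413 the values were 74 and 45 against 67 and 78, and on chromosome 4 from 47533202 to 47534143 they were 71 and 61 against 65 and 108. The Poisson intervals overlapped in the chromosome 11 region, which had a ratio of 1.52.

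Whether such regions keep their direction in a library that did not choose them was read in 2 ways, as a description, since regions of 1 library are not replicates. In the first, regions were chosen on 3 libraries by the same rule and read in the fourth. With treated replicate 1 left out, 2236 regions were chosen, and 79.0% of those with a peak in it lay above both untreated libraries there (95% Wilson interval 77.2 to 80.6). Over all strong regions of the 3 lists this share was 25.2%. With treated replicate 2 left out it was 81.0% (79.1 to 82.8) of 1756 regions, against 25.2%. With untreated replicate 1 or 2 left out, 90.1% (88.7 to 91.4) and 92.3% (91.0 to 93.4) lay below the lower treated library, against 27.5% and 31.6%. The difference was smaller in the library left out. Its median ratio was 1.33 and 1.34 in treated replicates 1 and 2, and 1.48 and 1.57 in untreated replicates 1 and 2. A ratio of 1.5 was reached again by 34.7%, 36.2%, 48.8% and 55.2% of regions in that order.

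**Figure D3:**
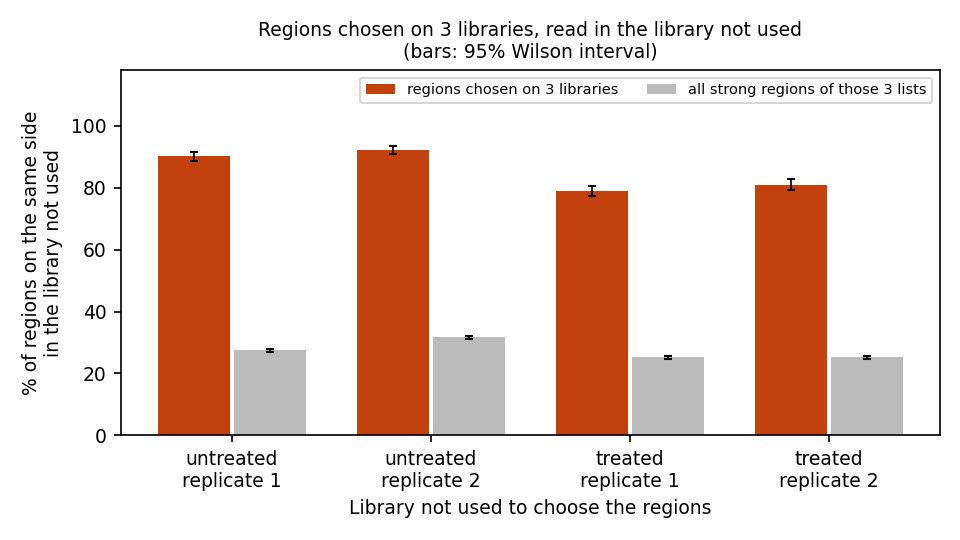
Share of regions (percent) that kept the direction in the library not used to choose them, for regions chosen on the other 3 libraries (orange) and for all strong regions of those 3 lists (grey). Lines are 95% Wilson intervals for counting error; the shares are 79.0% to 92.3% for chosen regions and 25.2% to 31.6% for all strong regions.

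That comparison still uses libraries of the other group that took part in the choice. In the second way, regions were chosen on 1 untreated and 1 treated library and read in the remaining pair alone. The treated library of the second pair was the higher one in 70.0% to 74.1% of chosen regions over the 4 ways to form the pairs. Over all regions with a coverage of 20 in either choosing library the share was 38.9% to 42.6%. The median treated to untreated ratio in the second pair was 1.25 to 1.33 for chosen regions and 0.90 to 0.94 for all.

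Members were unevenly spread over the genome, a property the choice did not use. Chromosome 5 held 151 of them, 3.46% of its strong regions (95% Wilson interval 2.96 to 4.04). Chromosome 11 held 113, or 3.29% (2.74 to 3.94), and chromosome 20 held 58, or 3.05% (2.37 to 3.93). These 3 chromosomes carried 31.5% of members and 19.5% of strong regions. Without treated replicate 1 or 2 they carried 24.96% and 25.8% of the higher regions, against 19.4% and 19.7% of strong regions. The lowest shares were 0.756% (0.294 to 1.93) on chromosome 21, with 4 members, and 1.03% (0.691 to 1.52) on chromosome 17, with 24. Regions of a chromosome are not replicates, and no test of these shares was made.

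The coverage of whole chromosomes moved with these shares. The median log2 ratio of mean treated to mean untreated coverage over all strong regions was −0.06 on chromosome 5 and −0.08 on chromosome 11, the highest of the 22 chromosomes. It was −0.15 on chromosome 20, close to the median of all strong regions, −0.25 on chromosome 17 and −0.31 on chromosome 19. Across the 22 chromosomes its Spearman rho with the share of members was 0.60, where both measures come from the same libraries. With each library corrected for the mean coverage of each chromosome, 998 regions were higher. Chromosomes 5, 11 and 20 then held 119, 85 and 44 of them, or 2.73%, 2.48% and 2.32% of their strong regions. Their joint share of the higher regions was then 24.8%. Chromosome 19 then had 2.71%, against 1.93% before. The part of chromosome-wide differences in the uneven spread was not tested beyond this.

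**Figure D4:**
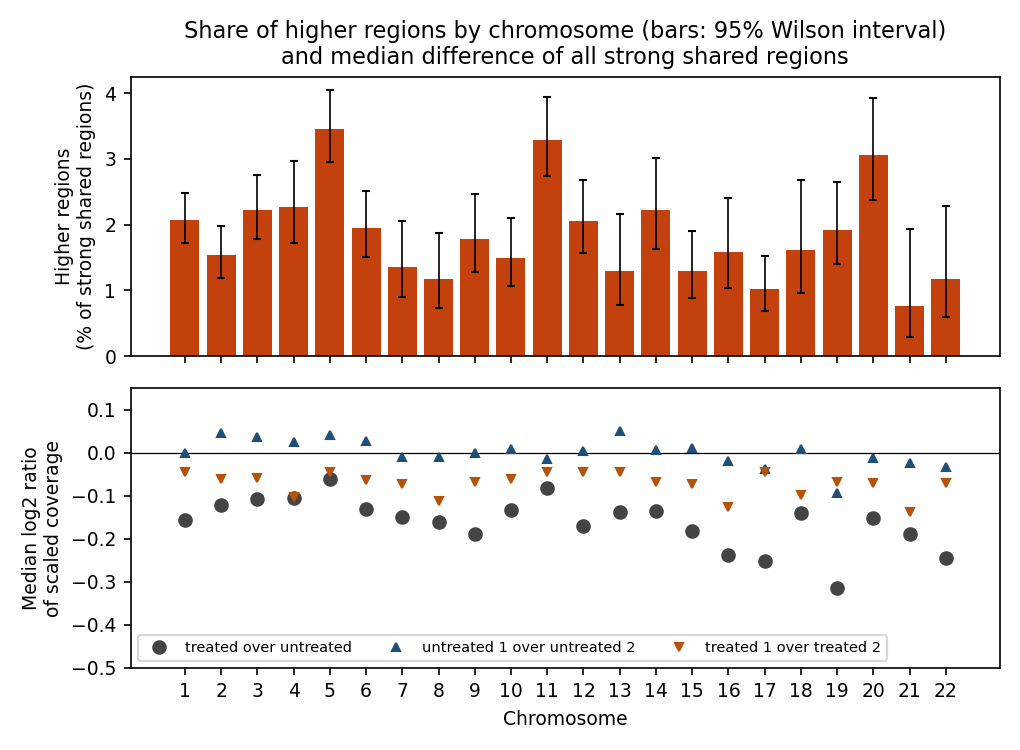
Upper panel: members as a percentage of each chromosome's strong shared regions, with 95% Wilson intervals. Lower panel: median log2 ratio over all strong shared regions for mean treated over mean untreated (circles), untreated replicate 1 over 2 (upward triangles) and treated replicate 1 over 2 (downward triangles); chromosomes 5 and 11 have the highest treated to untreated values, at −0.06 and −0.08.

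Within chromosomes, a larger share of members than of strong regions lay near the first or last listed region, a share that was not tested. Such a region is called a chromosome end below, although it need not lie at the end of the sequence. Within 5 Mb of the first or last listed region of a chromosome were 175 members, 17.1% (95% Wilson interval 14.9 to 19.5). Of all strong regions 10.2% lay there, and of the lower regions 10.8% (9.63 to 11.98). The share of members was smaller without a treated library, at 13.3% without replicate 1 and 12.9% without replicate 2, against 10.2% and 10.4% of strong regions.

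Windows of 5 Mb showed where members were densest. Of 528 windows with at least 20 strong regions, 368 held a member and 11 held at least 10. Of these 11, 6 were on chromosome 5, 2 each on chromosomes 1 and 11, and 1 on chromosome 20. The end of chromosome 20 from 60 Mb held the most, 14 members among 179 strong regions (7.82%), and 3 lower regions. The first 5 Mb of chromosome 5 had the highest share of the 11, with 10 members among 67 strong regions (14.9%) and 3 lower regions. From 5 to 10 Mb on chromosome 5 there were 10 members among 116, and 1 lower region. In these 11 windows the median log2 ratio of all strong regions ran from −0.16 to 0.07, and in 9 it was above the −0.15 of the genome. It was −0.16 on chromosome 1 from 40 to 45 Mb, and on chromosome 5 it was −0.15 from 75 to 80 Mb, just below the value of the genome. The windows were picked by their counts and were not tested. Their medians include the members that picked them. How many of all 528 windows lay above the value of the genome was not counted.

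Some members lay in runs, here 3 or more members with gaps of at most 50 kb. There were 24 such runs with 85 members (8.31%), while 822 members had no other member within 50 kb. Of the lower regions 6.91% lay in runs made in the same way, although there were more of them. Chromosome 5 held 6 runs, chromosome 11 held 5 and chromosome 20 held 4. In 21 runs no lower region lay between the members, where 5.38% of all strong regions were lower. In 13 runs every strong region was a member, so no lower region could lie inside. Nothing is read from these counts. The share in runs fell to 4.14% when peaks up to 150 bp apart were merged. In that setting 941 regions were higher, and 957 members overlapped them.

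The run with the highest median ratio, 4.5, was on chromosome 1 from 41487150 to 41508628, where all 5 strong regions in 21.5 kb were members. The run's first region, to 41488491, had a coverage of 7 and 8 in the untreated and 25 and 31 in the treated libraries, a ratio of 4.36. The region from 41488848 to 41489843 was the highest in each group, with 18 and 19 against 44 and 57 and a ratio of 3.38. From 41490495 to 41495974 the values were 8 and 10 against 31 and 42. From 41496144 to 41500135 they were 7 and 8 against 24 and 37, and from 41507388 to 41508628 they were 5 and 6 against 20 and 24. In every member both raw treated values were above both raw untreated ones. All raw untreated values here were below 20, so only the treated libraries could meet the raw minimum, which fixed this order. The number of listed summits was also higher after treatment. With 2 kb on either side, the stretch held 13 and 18 summits in the untreated libraries and 32 in each treated library, with median raw coverages of 7 and 8 against 16.5 and 18.5.

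The longest run, of 6 members, was on chromosome 5 from 176858158 to 176907957. It held 14 strong regions, 11 of them with a ratio above 1, and no lower region. The 11 include the 6 members, whose ratio is at least 1.5 by the rule. Over all strong regions 15.9% had a ratio above 1 and 5.38% were lower. The first member of the run, to 176859730, had 8 and 7 in the untreated against 27 and 30 in the treated libraries, a ratio of 4.82. The next, from 176860904 to 176862555, had 27 and 19 against 45 and 43, a ratio of 2.29. The region from 176896265 to 176899238 had 46 and 31 against 45 and 59, a ratio of 1.84. From 176899309 to 176904771 the coverage was 47 and 43 against 46 and 58, a ratio of 1.52. The last members, from 176905842 to 176907322 and from 176907371 to 176907957, had 13 and 21 against 21 and 29, and 12 and 11 against 24 and 28. Unlike the chromosome 1 run, this stretch mixed members with strong sites below the threshold. The highest summit of each library, which lay in none of the members, had a scaled coverage of 5.17 and 4.83 in the untreated and 5.91 and 5.69 in the treated libraries. These summits were not all at the same site. They lay 16.8 and 24.4 kb from the start of the run in the untreated and 16.9 and 23.4 kb in the treated libraries.

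**Figure D5:**
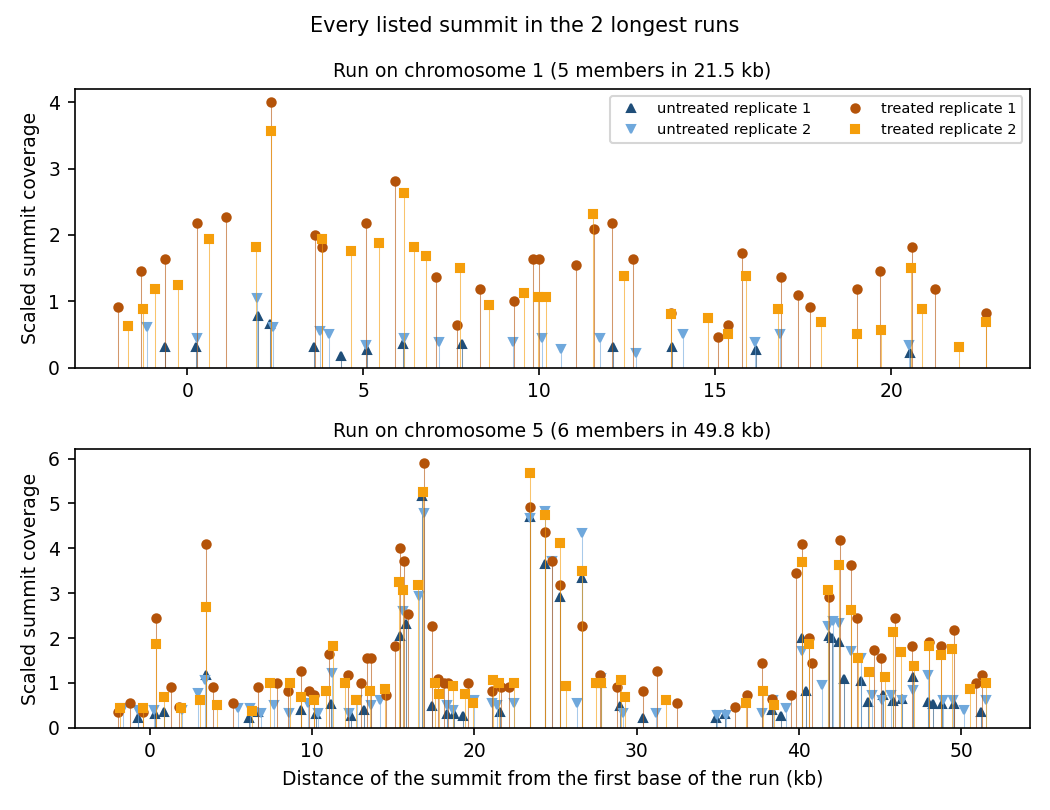
Scaled coverage of every listed summit by its distance (kb) from the first base of the run on chromosome 1 (upper) and on chromosome 5 (lower), for untreated (blue triangles) and treated libraries (orange circles and squares). In the chromosome 1 run no untreated summit exceeds 1.06 while treated summits reach 4.0 and 3.56. In the chromosome 5 run the tallest summit of each library, not always at the same site, is at 5.17 and 4.83 in the untreated and 5.91 and 5.69 in the treated libraries.

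A further run lay on chromosome 5 from 861489 to 957882, with 4 members among 6 strong regions. Its region from 861489 to 863860 had 46 and 51 in the untreated against 53 and 98 in the treated libraries. From 911663 to 912204 the values were 20 and 15 against 23 and 33, and from 912566 to 913125 they were 39 and 34 against 43 and 71. At its end, from 956848 to 957882, they were 50 and 38 against 38 and 55, so the raw groups overlapped there. Ratios in this run were between 1.58 and 2.37.

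On chromosome 11, 4 members filled the stretch from 846670 to 869799. It ended in the widest member of all, 7904 bp from 861896, with 11 or 12 summits in each list and a coverage of 24 and 22 against 30 and 31. The other 3 had 27 and 25 against 36 and 41, 14 and 18 against 20 and 26, and 15 and 13 against 28 and 26. A shorter run on the same chromosome, from 64522660 to 64531425, also held 4 members and no other strong region. Its last member, from 64530509, had 12 and 15 against 31 and 49, a ratio of 3.38, and its first had 10 and 8 against 22 and 20. On chromosome 12 from 52641516 to 52650726, 4 members in 9.21 kb had ratios between 1.82 and 2.16. The highest of them, from 52646341 to 52647486, had 39 and 37 against 44 and 60.

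The widths and summit positions of members had medians close to those of all strong regions, with a longer tail of wide members. Their median width was 632 bp, against 663 bp, and 58.3% had a single summit in every list, against 54.8%. In these single-summit members the 4 summits lay within a median of 43 bp of each other, against 42 bp. The treated summits were a median of 18 bp apart and the untreated ones 19 bp apart. All 4 summits were within 100 bp of each other in 81.5% of single-summit members and 82.6% of single-summit strong regions. A width of 3000 bp or more was found in 25 members (2.44%) and in 0.741% of strong regions. Of the 25, 6 were on chromosome 1, 5 on chromosome 11 and 4 on chromosome 20.

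A wide region has more chances to hold a high summit in any list, so width and the choice by the highest summit are not fully separate. With the mean over the summits of a region in place of the highest, 851 regions were higher, 726 of them members. One wide member was on chromosome 11 from 69467494 to 69475260, 7767 bp long, with 34 and 31 in the untreated and 46 and 52 in the treated libraries. Another, on chromosome 4 from 10079340 to 10083208, had 37 and 28 against 50 and 76, a ratio of 2.83. On chromosome 20 from 61285972 to 61289654 the coverage was 7 and 10 against 33 and 36, a ratio of 4.05. More summits in each treated than in each untreated list were listed in 63 members (6.16%), and the reverse in 10 (0.978%). Over strong regions these shares were 3.001% and 2.64%.

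The surroundings of members were set beside those of all strong regions, with no test. A region found in both treated lists and neither untreated list lay within 10 kb of 37.6% of members (95% Wilson interval 34.7 to 40.6). For all strong regions the share was 24.1%, and for the lower regions 20.2% (18.7 to 21.8). A region found in both untreated lists only lay within 10 kb of 10.2% of members (8.46 to 12.2), against 15.1% of strong regions and 17.2% (15.8 to 18.6) of the lower ones. Members were also near each other, with another member within 10 kb for 11.05% (9.27 to 13.1), against 2.29% of strong regions. Of the lower regions, 7.43% (6.49 to 8.48) had another lower region within 10 kb. Members split by short gaps count as neighbours, and the share was not computed with peaks up to 150 bp apart merged. A lower region lay within 10 kb of 3.91% of members (2.88 to 5.28), against 5.42% of strong regions. These neighbours come from the same 4 libraries as the choice, and intervals cover counting only.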

How the data were processed

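ATAC-seq was done on BCPAP cells in 2 untreated and 2 treated libraries. Per the submitters' processing notes, Trimmomatic, Bowtie2, Picard, MACS2 and hg19 were used. Their versions and settings, and whether read ends were shifted, are not given in these sources. Deposited peak intervals were nearly all 500 bp wide. The deposited fold enrichment is the peak caller's ratio at the summit over a uniform background, and the deposited −log10 q served as a filter in 1 alternative. Fold values were whole multiples of 1 step, so coverage was 5 times the fold over the lowest fold of the list, rounded, minus 1. A raw coverage of 20 had a fold of 10.98 and 11.07 in untreated replicates 1 and 2. In treated replicates 1 and 2 it had 11.06 and 11.20. The background was thus nearly the same in the 4 libraries, and the scaling by the median is not a correction for it. Why the treated medians were lower was not tested. The number of reads is unknown. Coverage is a pileup at 1 position and was not fitted with a count model.

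The members and lists were chosen with earlier results of these data known. Named regions were the 12 largest ratios, the 8 members highest in their lower treated library, up to 6 of the longest runs, and 3 regions on each side of the threshold. Regions named for width, and windows, were picked after their values were seen. The rule was checked on simulated lists of single-summit sites with Poisson counts and changes larger than those of most members. That check does not bear on small changes or on regions with several summits. Gene positions, gene lists and sequence content were not analysed here, since the gene table at hand is on another build. The work was done in Python 3.11.15 with pandas 2.3.3, numpy 2.4.6 and scipy 1.17.1, and plots in matplotlib 3.10.9.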

Additional observations from a re-analysis of the deposited data

How the results depend on the processing

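Several settings moved the counts by over 1.5 times. Without scaling, 141 regions were higher and 12697 lower, 24.8% of the higher ones lay near a chromosome end, and the median ratio of the members was 1.0. A threshold of 2 left 262 higher and 325 lower regions, with 21.0% near an end. A raw minimum of 10 gave 4283 higher and 3144 lower regions, with 18.7% of the higher ones in runs. A minimum of 30 gave 344 higher and 1820 lower regions, with 1.74% of the higher ones in runs. Lower regions numbered 1776 with scaling over strong regions and 1640 at a −log10 q of at least 5. Merging within 150 bp put 4.14% in runs. Leaving out each library in turn gave 1100 to 1915 higher and 3399 to 11339 lower regions, with 12.9% to 16.7% of the higher ones near an end and 4.0% to 10.3% in runs. With 3 libraries fewer must differ, but the raw minimum must be met in 2 of 3. Members that overlapped a higher region numbered 736 and 862 without untreated replicates 1 and 2, and 703 and 478 without treated replicates 1 and 2. Scaling by the mean gave 1140 higher regions, quantile scaling 1362 and summits with 100 bp on either side 1042. With replicate numbers as pairs (replicate block), 1493 regions were higher and 3861 lower. Deviations of same-numbered libraries had a correlation of −0.06 over strong regions, so the numbers were not taken as pairs. Scaling by chromosome, the counts in the second pair of libraries, and the shares near ends under settings other than the 150 bp merging were chosen after seeing the data. Gene starts and sequence content were not run.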

Other observations

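Chromosome X was outside the choice. With the same scaling, 20 of its 1109 strong shared regions (1.80%) met the rule for higher coverage after treatment and 45 (4.06%) met the rule for lower coverage, against 2.06% and 5.38% on chromosomes 1 to 22.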
